A study of Mus musculus with 2 samples.

Results

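The genes described here encode the chains of collagens and laminins, the main structural proteins of the extracellular matrix. They were chosen by symbol alone, as *Col* followed by a number, an a and a number, or as *Lama*, *Lamb* or *Lamc* followed by a number. This rule found 54 of the 29311 genes listed in both tables, and no further gene of the NCBIM37 annotation carries such a symbol. The 54 genes comprise 43 collagen genes, grouped as 11 fibrillar, 8 basement membrane and 24 other collagens, and 11 laminin chain genes.

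RNA-seq was performed on 1 sample of wild-type E14 embryonic stem (ES) cells and on 1 sample of wild-type forebrain from B6CBAF1/J embryos at E10.5, a mid-gestation stage. The ES cells were cultured without feeder cells on gelatin in medium with serum and LIF. According to the methods of the study, forebrain RNA was isolated from single embryos, whereas the labels describe RNA from a counted number of cells. With 1 sample per group there are no replicates, so no difference below has a replicate check, and strain, culture and tissue cannot be told apart.

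Collagens are trimers of chains that wind around each other as a triple helix, which requires that glycine recurs with a pair of other amino acids between a glycine and the next. Fibrillar collagens (types I, II, III, V, XI, XXIV and XXVII) assemble into the fibrils of connective tissue and cartilage. Type IV collagen instead forms the flexible network of basement membranes, the thin sheets under epithelia, around blood vessels and at the surface of the neural tube. Laminins are cross-shaped trimers of an alpha, a beta and a gamma chain, which polymerise into the other network of the basement membrane and are among the first matrix proteins made by the early embryo.

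These differences are visible in the coding sequences. The exons below are shown because they carry the repeat that defines a collagen chain, for the fibrillar chains with the highest RPKM in forebrain (*Col3a1* and *Col2a1*), the basement membrane chains *Col4a1* and *Col18a1*, and *Col9a1* among the other collagens. They were read from the NCBIM37 (mm9) genome, and capitals mark the recurring GGN codons, which encode glycine. A GGN codon with the pair of codons that follows it is called a triplet here.
*Col3a1*, chr1:45382205-45382258, plus strand: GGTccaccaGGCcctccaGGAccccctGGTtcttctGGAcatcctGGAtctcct
*Col2a1*, chr15:97826920-97826973, minus strand: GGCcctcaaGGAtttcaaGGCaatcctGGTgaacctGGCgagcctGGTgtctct
*Col4a1*, chr8:11245211-11245264, minus strand: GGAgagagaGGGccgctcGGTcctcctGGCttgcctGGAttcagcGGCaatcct
*Col18a1*, chr10:76539904-76539966, minus strand: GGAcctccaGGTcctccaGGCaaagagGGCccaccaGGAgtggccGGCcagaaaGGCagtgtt
*Col9a1*, chr1:24217212-24217265, plus strand: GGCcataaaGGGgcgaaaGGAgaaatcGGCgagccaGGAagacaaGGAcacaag

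Each exon is a whole coding exon, chosen to start with a glycine codon and to lie in the longest run of such triplets. Exons of 54 bases were taken where available, so these traits follow from the choice. In *Col4a1*, 2 of the 50 inner coding exons have 54 bp. Those of *Col3a1*, *Col2a1*, *Col4a1* and *Col9a1* hold 54 bases and 6 such triplets, and that of *Col18a1* holds 63 bases and 7. A stretch of the laminin chain gene *Lamc1*, chosen for its number of cysteine codons, is given for contrast. Its capitals mark the cysteine codons TGT and TGC, which are frequent in the epidermal growth factor-like repeats of laminin arms.
*Lamc1*, chr1:155090416-155090535, minus strand: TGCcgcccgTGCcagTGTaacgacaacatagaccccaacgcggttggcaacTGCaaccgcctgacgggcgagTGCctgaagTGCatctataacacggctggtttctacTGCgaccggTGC

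In the longest coding transcript of each gene, the longest unbroken run of such triplets extended over 216 to 344 triplets in the 11 fibrillar genes. In the basement membrane collagens the longest run was 30 to 66 triplets. It was 39 to 66 in the type IV chains, whose triple helix is interrupted many times, and 30 in *Col15a1* and *Col18a1*. The longest run of the other collagens was 28 to 113 triplets, and no laminin gene had more than 3. Exons of 54 bp made up 48.6% of the 627 inner coding exons of fibrillar genes, compared with 16.1% in the other collagens, 4.42% in the basement membrane collagens and 0% in laminins. Over all listed protein-coding genes this share was 0.707% of 152119 inner coding exons.

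**Figure D1:**
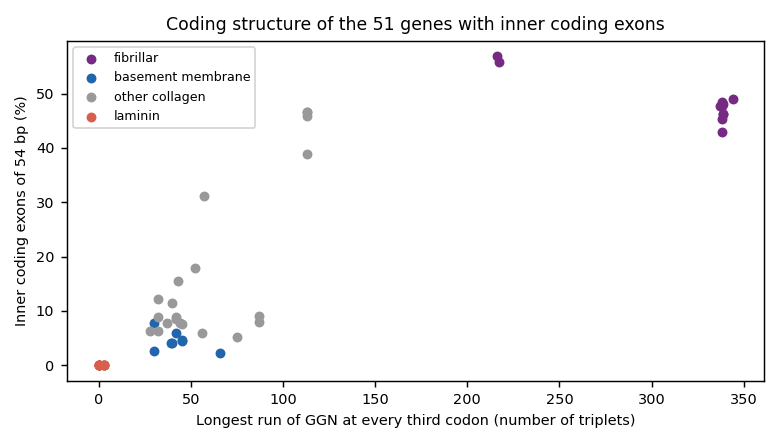
Share of inner coding exons that are 54 bp long (vertical axis, %) against the longest run of GGN triplets (horizontal axis, number of triplets), with each point a gene coloured by class, and 3 collagen genes without inner coding exons are left out. Fibrillar collagens lie apart on the right with runs of 216 to 344 triplets, and laminins lie at or next to the origin, with runs of at most 3.

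The deposited value is called RPKM, reads per kilobase of gene with a scaling between samples that is not stated. Low values fall near whole multiples of the contribution of 1 read, from which reads per gene were inferred, 42742397 over all genes in ES cells and 59754077 in forebrain. The intervals given for ratios are exact binomial 95% intervals on the inferred reads and cover counting error only. Pluripotency markers were at least 2-fold higher in ES cells for 8 of 8 genes, compared with 23.3% of all listed genes. Neural progenitor markers were at least 2-fold higher in forebrain for 7 of 7 genes found by symbol, compared with 25.8%. These lists were chosen with earlier results of these data known, so the counts are no independent check of the labels.

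A gene was called different when log2(RPKM + 1) differed by at least 1, that is 2-fold. Of the 54 genes, 36 were higher in forebrain and 7 in ES cells. Over all listed genes, 25.8% were higher in forebrain and 23.3% in ES cells by the same measure. The remaining 11 genes lay within 2-fold. The median difference was 3.15 on the log2(RPKM + 1) scale for the collagens and -0.41 for the laminins, with positive values for forebrain, compared with 0.01 over all listed genes. A difference of at least 16-fold in favour of forebrain was found for 24 of the 54 genes, and for 5.03% of all listed genes. At 4-fold, 29 genes were higher in forebrain and 6 in ES cells, compared with 14.4% and 11.3% of all listed genes. The counting interval of the ratio excluded no difference for 50 of the 54 genes, as it did for 64.1% of all listed genes.

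The classes contributed unequally to the matrix transcripts of each sample. The RPKM values of the 54 genes summed to 7840.1 in ES cells and to 36191.8 in forebrain. Laminins held 58.9% of this sum in ES cells and 9.7% in forebrain. Fibrillar collagens held 2.3% in ES cells and 57.3% in forebrain. Basement membrane collagens had 35.4% and 24.4%, respectively. In ES cells 4 genes, *Col18a1*, *Lamc1*, *Lama1* and *Lama5*, accounted for 81.6% of the sum. In forebrain the 4 highest genes were *Col3a1*, *Col2a1*, *Col4a1* and *Col1a2*, with 57.9%, whereas they held 1.1% in ES cells.

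**Figure D2:**
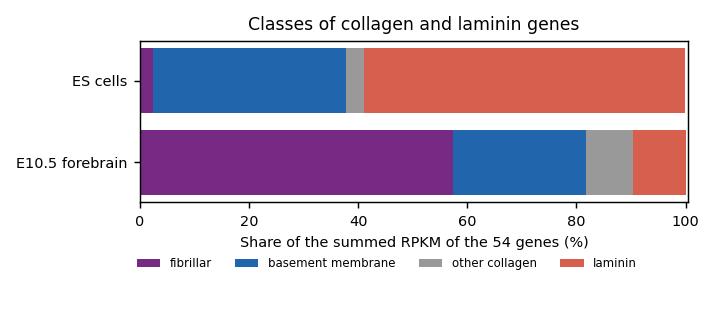
Share of the summed RPKM of the 54 genes (horizontal axis, %) held by each class in each sample. Laminins and basement membrane collagens fill most of the ES cell bar, while fibrillar collagens take 57.3% of the forebrain bar.

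All 11 fibrillar collagen genes were at least 2-fold higher in forebrain. None of them exceeded the median of all genes in ES cells (RPKM 48.94), and 8 exceeded that of forebrain (62.37). *Col3a1* (chr1:45368383-45406551, mm9), the single chain of type III collagen of soft connective tissue and vessel walls, had an RPKM of 7.56 in ES cells and of 10811.98 in forebrain, from 52 and 110732 reads. This was a 1430-fold difference (1089 to 1912), and it placed *Col3a1* at percentile 99.0 of all genes in forebrain.

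Type I collagen, the main collagen of bone and skin, is built from the chains of *Col1a1* and *Col1a2*. *Col1a1* (chr11:94797538-94814356) had 13.95 in ES cells and 514.26 in forebrain, 36.9-fold apart (29.3 to 46.9). *Col1a2* (chr6:4454814-4491543) had 18.35 and 3036.77, a 165-fold difference (143 to 193). Although the type I trimer usually holds a pair of *Col1a1* chains for each *Col1a2* chain, the RPKM of *Col1a2* was 5.91 times that of *Col1a1* in forebrain (5.72 to 6.10) and 1.32 times in ES cells (0.997 to 1.74). The comparison depends on the length by which reads were divided: the annotation gives 12145 bp of exon for *Col1a2* and 6563 bp for *Col1a1*.

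*Col2a1* (chr15:97806033-97835155) encodes the type II collagen of cartilage, which is also made by the neuroepithelium and notochord of the early embryo. Its RPKM was 19.44 in ES cells and 3580.84 in forebrain, 184-fold apart (151 to 227). Its fibril partner *Col11a1* had 21.74 and 476.13, a 21.9-fold difference (18.8 to 25.6). The other type XI chain, *Col11a2*, had 2.86 and 11.39 from 16 and 95 reads, a 3.98-fold difference (2.33 to 7.25).

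Type V collagen sits inside type I fibrils and limits their diameter. *Col5a2* had an RPKM of 35.51 in ES cells and 1869.45 in forebrain (52.6-fold, 46.7 to 59.4). *Col5a1*, the highest fibrillar gene in ES cells, had 47.38 and 348.81 (7.36-fold, 6.58 to 8.27). Thus *Col5a1* exceeded *Col5a2* in ES cells, whereas *Col5a2* was 5.36 times *Col5a1* in forebrain (5.17 to 5.55). *Col5a3* had 1.79 and 5.53, the smallest difference of the class at 3.09-fold (1.54 to 6.86). The distantly related fibrillar genes *Col27a1* (13.85 and 71.11) and *Col24a1* (0.32 and 21.17) completed the class, and the ES value of *Col24a1* rests on 2 reads.

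**Figure D3:**
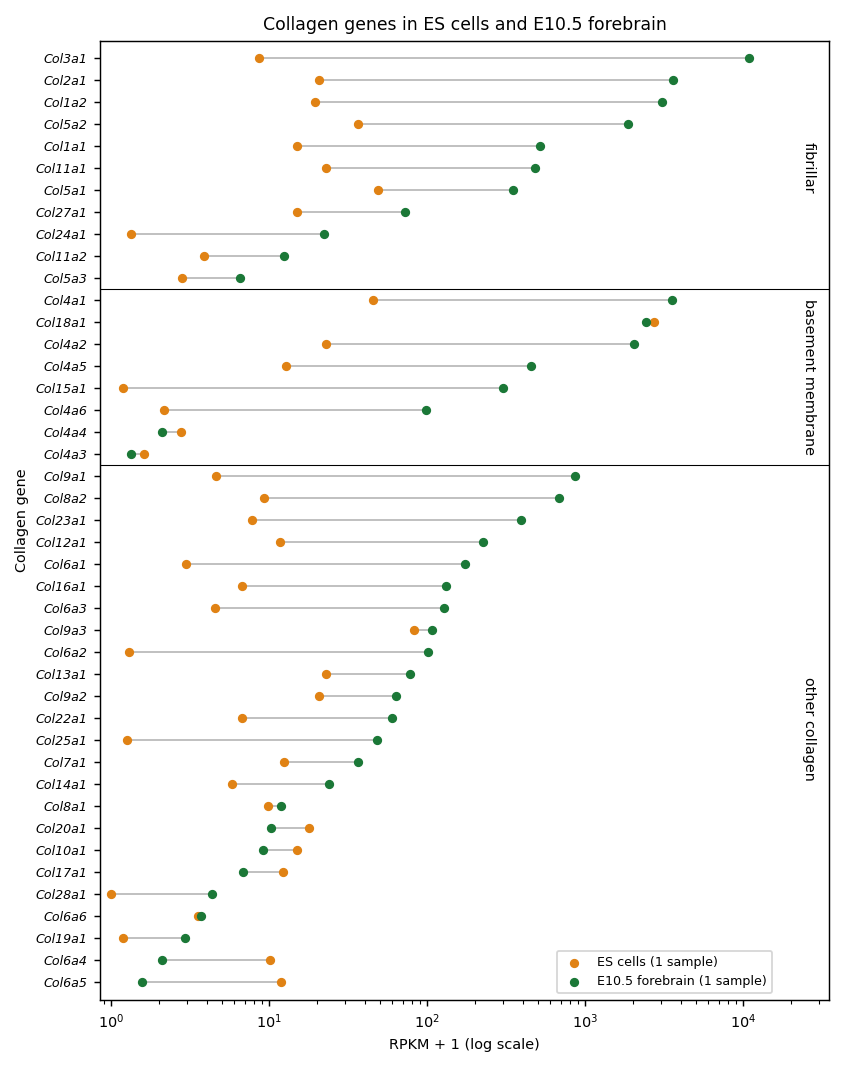
RPKM + 1 of the 43 collagen genes (horizontal axis, log scale) in ES cells (orange) and forebrain (green), 1 sample each, ordered within each class by the value in forebrain. All 11 fibrillar genes have the green point to the right, *Col18a1* has nearly the same value in both samples, and *Col6a4* and *Col6a5* lie lower in forebrain.

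Markers of other cell types were also compared, where 25.8% of all listed genes were higher in forebrain. Such differences were not particular to mesenchymal and pericyte markers. Neural progenitor markers (7 of 7 genes), erythroid markers (5 of 5) and endothelial markers (7 of 8) were also higher there. All 10 mesenchymal markers were at least 2-fold higher in forebrain, and their RPKM summed to 98.2 in ES cells and 6517.8 in forebrain. Among them, *Lum*, a proteoglycan that binds collagen fibrils, had 2.35 and 1698.58, and *Twist1*, a transcription factor of head mesenchyme, had 12.84 and 1556.07. Pericyte markers were higher in forebrain for 5 of 5 genes, with sums of 101.0 and 709.2 and values in ES cells from 0 to 97.21. *Notch3*, with 97.21 in ES cells and 487.90 in forebrain, made up most of both sums. Of the 5 genes, 2 exceeded the median of all genes in forebrain. The part of mesenchymal cells and pericytes in the collagen values was not tested. In these bulk samples, more cells of a type and more RNA per cell cannot be told apart.

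The basement membrane collagens split into a group that was much higher in forebrain (5 of 8 genes) and a group within 2-fold (3 of 8). *Col4a1* and *Col4a2* encode the type IV chains found in nearly all basement membranes. *Col4a1* (chr8:11198423-11312826) had an RPKM of 44.50 in ES cells and 3507.68 in forebrain, 78.8-fold apart (69.6 to 89.8). *Col4a2* (chr8:11312805-11449287) had 21.76 and 2027.43, a 93.2-fold difference (77.7 to 113). The pair kept a similar proportion, with *Col4a1* at 2.05 times *Col4a2* in ES cells (1.63 to 2.56) and at 1.73 times in forebrain (1.70 to 1.76).

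The X-linked pair *Col4a5* and *Col4a6* encodes chains of more restricted basement membranes. *Col4a5* (chrX:137909928-138123778) had 11.72 in ES cells and 452.52 in forebrain (38.6-fold, 30.4 to 50.6). *Col4a6* (chrX:137599946-137908619) had 1.14 and 96.73 (84.9-fold, 43.8 to 226). In contrast, *Col4a3* and *Col4a4*, which in the adult form the network of the kidney glomerulus with *Col4a5*, rested on 4 to 12 reads per sample. Their RPKM was 0.61 and 1.76 in ES cells and 0.33 and 1.08 in forebrain, and their intervals include no difference.

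All 3 type IV pairs are arranged head to head, with transcription in opposite directions from neighbouring starts. The annotated starts of *Col4a1* and *Col4a2* overlap by 22 bp, so that without strand some reads could be given to either gene. Those of *Col4a6* and *Col4a5* lie 1308 bp apart. The 71 bp between the starts of *Col4a4* and *Col4a3* are shown because they are the whole interval that separates the pair of genes that remained low in both samples.
*Col4a4* to *Col4a3*, chr1:82583425-82583495, plus strand: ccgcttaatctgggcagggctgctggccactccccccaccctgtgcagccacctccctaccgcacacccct

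The chains of the multiplexins, types XV and XVIII, carry heparan or chondroitin sulfate and lie at the outer face of basement membranes. They differed from each other. *Col18a1* (chr10:76514923-76629293), the precursor of endostatin, was the highest of the 54 genes in ES cells, with an RPKM of 2696.92, and had 2430.55 in forebrain. It was thus 1.11 times as high in ES cells (1.09 to 1.13), an order that turns when values are expressed as a share of the total of each sample. *Col15a1* (chr4:47221033-47326039) had 0.19 from 1 read in ES cells and 299.05 from 2317 reads in forebrain, a ratio of 1574 (279 to 61399). *Col15a1* is a known product of capillary walls and of mesenchyme.

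Endothelial markers were at least 2-fold higher in forebrain for 7 of 8 genes, compared with 25.8% of all listed genes. Their RPKM summed to 685.9 in ES cells and 2989.2 in forebrain. Among them, *Kdr*, the main receptor for VEGF, had 24.99 and 601.26, and the sialomucin *Emcn* had 0.34 and 239.64. The adhesion molecule *Pecam1*, with 551.14 in ES cells and 316.51 in forebrain, made up most of the ES sum. The part of these cells in the type IV and type XV values was not tested.

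Of the 24 other collagens, 16 were at least 2-fold higher in forebrain, 2 in ES cells, and 6 lay within 2-fold. Their median difference on the log2(RPKM + 1) scale was 1.90, or 1.69 with *Col28a1*, which had no read in ES cells, placed at the limit of 3 reads there. In ES cells, only *Col9a3* of these 24 genes exceeded the median of all genes, whereas 10 did so in forebrain.

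Type IX collagen decorates the surface of type II fibrils, with a chain from each of *Col9a1*, *Col9a2* and *Col9a3*. The 3 genes did not move together. *Col9a1* (chr1:24184449-24259577) had 3.58 in ES cells and 861.71 in forebrain, 241-fold apart (146 to 431). *Col9a2* had 19.72 and 62.32 (3.16-fold, 2.31 to 4.37). *Col9a3* had 80.91 and 105.76 (1.31-fold, 1.12 to 1.53). In ES cells *Col9a3* was thus 22.6 times *Col9a1* (13.4 to 41.0), and in forebrain *Col9a1* was 8.15 times *Col9a3* (7.44 to 8.95). A 234-bp stretch of *Col9a3* overlaps *Tcfl5* on the opposite strand, which had an RPKM of 386.97 in ES cells and 26.39 in forebrain, so that part of its reads could belong to the latter if strand was not used.

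The type VIII chains form hexagonal lattices in the cornea and in vessel walls. *Col8a2* (chr4:125964037-125991574) had an RPKM of 8.30 in ES cells and 680.60 in forebrain (82.0-fold, 58.3 to 124). Its partner *Col8a1* had 8.84 and 10.90, and its interval includes no difference (0.814 to 1.89).

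Type VI collagen forms beaded filaments around mesenchymal cells, classically from *Col6a1*, *Col6a2* and *Col6a3*. These chains were near absent in ES cells and moderate in forebrain. *Col6a1* had 1.95 and 171.82 (88.1-fold, 42.7 to 220), and *Col6a3* had 3.52 and 126.92 (36.1-fold, 26.0 to 52.9). *Col6a2* had 0.29 from 2 reads and 100.20 from 1018 reads, a ratio of 346 (94.3 to 2822).

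The alternative chains *Col6a4*, *Col6a5* and *Col6a6*, which lie side by side on chromosome 9, behaved otherwise. *Col6a5* had an RPKM of 10.84 in ES cells and 0.57 in forebrain, 19.0-fold higher in ES cells (8.97 to 57.1). *Col6a4* had 9.09 and 1.10, 8.26-fold higher in ES cells (4.46 to 18.0). They were the 2 collagen genes called higher in ES cells, although at levels below the median of all genes. *Col6a6* had 2.53 and 2.68, from 15 and 24 reads. *Col6a5* and *Col6a6* share 572 bp at 96.853% identity, so that reads of this stretch could be exchanged between them.

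Several membrane-bound collagens were also higher in forebrain. *Col23a1* had 6.70 in ES cells and 388.98 in forebrain (58.1-fold, 41.4 to 86.9). *Col25a1*, a neuronal collagen needed for the innervation of muscle, had 0.26 from 2 reads and 46.67 from 529 reads. *Col13a1*, found at neuromuscular junctions and focal adhesions, had 21.70 and 76.17 (3.51-fold, 2.76 to 4.50). A further member of this type, *Col17a1* of hemidesmosomes, was within 2-fold on the scale of calls, with 11.12 and 5.83.

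The collagens that associate with fibrils, and the other low genes, mostly followed the fibrillar class. *Col12a1* of dense connective tissue had 10.66 and 222.90 (20.9-fold, 17.6 to 25.0), and *Col16a1* had 5.70 and 130.20 (22.8-fold, 16.2 to 34.3). *Col22a1*, known from tissue junctions, had 5.70 and 58.56, *Col14a1* had 4.79 and 22.78, and *Col7a1*, the anchoring fibril collagen of skin, had 11.36 and 35.43. *Col10a1* of hypertrophic cartilage (14.04 and 8.11) and *Col20a1* (16.74 and 9.28) lay within 2-fold. *Col28a1* had no read in ES cells and 20 reads in forebrain, at least 4.47-fold higher when ES cells are set to a floor of 3 reads. *Col19a1* rested on 1 and 16 reads.

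The laminin chains, unlike the fibrillar collagens, included genes at high levels in both samples. Of the 11 genes, 7 exceeded the median of all genes in ES cells and 8 in forebrain. By the 2-fold measure 5 were higher in ES cells, 4 in forebrain and 2 were within 2-fold. Their RPKM summed to 4620.3 in ES cells and 3494.2 in forebrain.

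Alpha chains determine which receptors a laminin trimer binds. *Lama1* (chr17:68046605-68171985), the alpha chain of the first embryonic laminin, had an RPKM of 878.97 in ES cells and 660.19 in forebrain, 1.33-fold higher in ES cells (1.29 to 1.38). *Lama5* (chr2:179911078-179960564), the widespread epithelial alpha chain, had 873.92 and 71.65, 12.2-fold higher in ES cells (11.4 to 13.0). Hence *Lama1* and *Lama5* were at the same level in ES cells, with a ratio of 1.01 (0.974 to 1.04), while *Lama1* was 9.21 times *Lama5* in forebrain (8.63 to 9.85).

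*Lama3*, which belongs to the laminin of the epidermal basement membrane, had 60.66 in ES cells and 1.94 in forebrain (31.3-fold higher in ES cells, 20.9 to 48.7). The alpha chains of muscle and of vessels went the opposite way. *Lama2* (chr10:26701094-27336748), deficient in merosin-negative muscular dystrophy, had 1.76 and 291.25, 165-fold higher in forebrain (98.6 to 303). *Lama4* (chr10:38685321-38829994), typical of endothelium, had 7.13 and 238.30 (33.4-fold, 26.5 to 43.2).

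*Lamb1* (chr12:31950099-32014509), the common embryonic beta chain, had 367.97 in ES cells and 908.99 in forebrain, 2.47-fold apart (2.37 to 2.57). *Lamb2*, the beta chain of synapses and of the glomerulus, had 280.69 and 440.93, within 2-fold (1.57, 1.47 to 1.68). *Lamb3*, the partner of *Lama3* in the epidermal laminin, had 33.42 and 5.07, 6.59-fold higher in ES cells (4.30 to 10.4).

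*Lamc1* (chr1:155066052-155179916), the gamma chain of most laminins and the gene of the cysteine-rich stretch printed above, had 1949.89 in ES cells and 557.63 in forebrain. It was 3.50-fold higher in ES cells (3.39 to 3.61). *Lamc3*, known from the pial surface of the developing cortex, had 1.20 from 6 reads and 303.44 from 2255 reads, 253-fold higher in forebrain (116 to 688). A 382-bp part of *Lamc3* is overlapped on the opposite strand by *Gm13441*, which had 0 reads in ES cells and 102 reads in forebrain.

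The partners *Lama3* and *Lamb3* were therefore both at least 2-fold higher in ES cells. Also, the order of the common chains differed between the samples. *Lamc1* was 5.30 times *Lamb1* in ES cells (5.09 to 5.52), and *Lamb1* was 1.63 times *Lamc1* in forebrain (1.58 to 1.68).

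**Figure D4:**
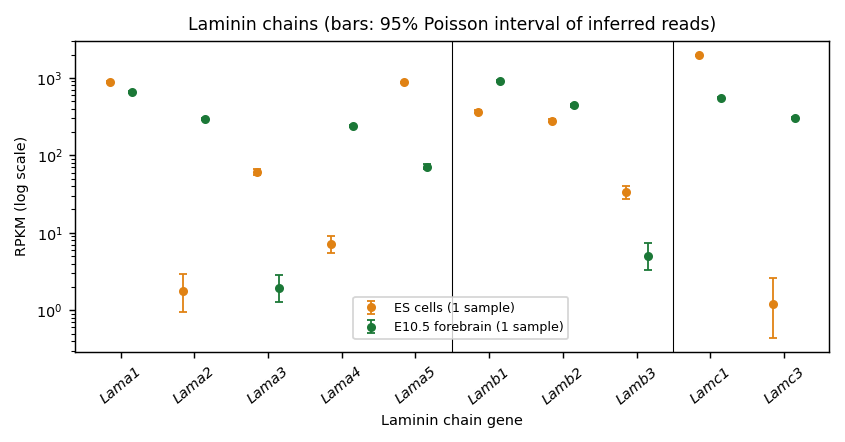
RPKM (vertical axis, log scale) of 10 laminin chain genes in ES cells (orange) and forebrain (green), 1 sample each, with alpha, beta and gamma chains separated by lines; bars are exact Poisson 95% intervals of the inferred reads. *Lama3*, *Lama5*, *Lamb3* and *Lamc1* are at least 2-fold higher in ES cells, and *Lama2*, *Lama4* and *Lamc3* are at most 7.13 in ES cells and at least 238.30 in forebrain.

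As laminins and type IV collagen are also made in quantity by the parietal and visceral endoderm, markers of these extraembryonic lineages were examined. Of 11 genes, 9 were at least 2-fold higher in forebrain and 2 in ES cells (*Gata4* and *Amn*). Over all listed genes these shares were 25.8% and 23.3%. Only 8 of the 11 reached 20 reads in either sample. *Ttr* rested on 0 reads in ES cells and 2 in forebrain, and its interval includes no difference. *Afp* rested on 1 and 12 reads, and *Gata4* on 10 and 2. None exceeded the median of all genes in ES cells, where their RPKM ranged from 0 (*Ttr*) to 16.66 (*Amn*) and summed to 45.1. The transcription factors *Gata4*, *Gata6* and *Sox17* had 3.12, 1.34 and 3.10 in ES cells and 0.52, 5.90 and 41.29 in forebrain. In forebrain 2 of the markers exceeded the median of all genes, *Dab2* (1.16 in ES cells and 202.32 in forebrain) and *Thbd* (14.45 and 171.18). The part of extraembryonic endoderm in the laminin and type IV collagen values was not tested. Of 6 surface ectoderm markers listed, 4 were found by symbol, while the annotation does not hold the symbols *Tfap2a* and *Tfap2b*. Of the genes found, 2 were at least 2-fold higher in forebrain and 1 in ES cells. The latter was *Grhl3*, a regulator of epidermal differentiation, with 296.35 and 36.86, while the keratin *Krt14* had 18.62 and 14.16. The 2 genes higher in forebrain were *Trp63*, with 0.15 from 1 read and 20.74 from 212 reads, and *Krt5*. The latter had 0.19 in ES cells, which rounds to 0 inferred reads, and 5.47 from 15 reads in forebrain. The part of surface ectoderm in the values of *Lama3* and *Lamb3* was not tested.

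Neighbouring members did not always have similar differences. *Col3a1* and *Col5a2*, 24614 bp apart on chromosome 1, differed by 10.30 and 5.68 on the log2(RPKM + 1) scale, both in favour of forebrain. *Col9a1* and *Col19a1*, 9151 bp apart, differed by 7.56 and 1.30. *Col6a2* and *Col6a1* had 6.29 and 5.87 across 85161 bp.

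The enzymes that process collagen chains were then considered, from lists of genes chosen by function. For the counts of this and the following lists, the shares over all listed genes were 25.8% higher in forebrain and 23.3% in ES cells. For 15 genes of prolyl and lysyl modification, 6 were at least 2-fold higher in forebrain, 1 in ES cells (*Crtap*) and 8 within 2-fold, and the median difference was 0.35 on the log2(RPKM + 1) scale. The general subunits were high in both samples. *P4hb*, the shared subunit of prolyl 4-hydroxylase, had an RPKM of 12069.13 in ES cells and 11529.67 in forebrain, and *Ppib*, a prolyl isomerase, had 8887.53 and 9676.78. The largest differences were found for alternative family members. The prolyl 3-hydroxylase *Leprel1* had 0.33 from 1 read and 78.14 from 355 reads, the glycosyltransferase *Glt25d2* had 0 and 34.92, and the prolyl 4-hydroxylase subunit *P4ha3* had 0.40 from 1 read and 41.99 from 156 reads. The more common *P4ha1* (812.53 and 1264.97) and *Glt25d1* (1128.31 and 728.52) lay within 2-fold.

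Among 9 genes of collagen folding and secretion found by symbol, 4 were at least 2-fold higher in forebrain and 5 within 2-fold. *Serpinh1*, the collagen-specific chaperone Hsp47, had 1803.98 in ES cells and 12251.87 in forebrain, 6.79-fold apart (6.56 to 7.03). The prolyl isomerase *Fkbp10* had 158.07 and 754.20 (4.77-fold, 4.28 to 5.32). *Sparc*, a collagen-binding protein abundant in basement membranes, had 3148.26 and 3243.15, and the coat protein *Sec23a* had 1450.66 and 1542.14.

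Of 14 genes of propeptide cleavage and crosslinking, 10 were at least 2-fold higher in forebrain and 1 in ES cells. *Pxdn*, which crosslinks type IV collagen, had 46.31 and 1079.14 (23.3-fold, 21.0 to 25.9). The crosslinking enzyme *Loxl2* had 68.85 and 865.17 (12.6-fold, 11.2 to 14.2). *Bmp1*, which removes the C-terminal propeptide of fibrillar collagens, had 57.28 and 769.42 (13.4-fold, 11.6 to 15.6). In contrast, its enhancer *Pcolce* had 1184.78 in ES cells and 786.84 in forebrain, and *Pcolce2*, the gene called higher in ES cells, had 385.00 and 41.44.

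Of 13 receptors for collagen and laminin, 6 were at least 2-fold higher in forebrain, 2 in ES cells and 5 within 2-fold. The collagen-activated kinase *Ddr2* had 7.25 and 745.00 (103-fold, 77.8 to 139), and its relative *Ddr1* had 78.64 and 859.58 (10.9-fold, 9.75 to 12.3). *Itga11*, an integrin that binds fibrillar collagen, had 3.81 and 83.73 (22.0-fold, 13.4 to 38.7). *Itga6*, a laminin-binding integrin subunit, had 1078.76 and 765.91, and *Bcam*, a receptor for the *Lama5* chain, had 759.85 and 215.21, 3.53-fold higher in ES cells (3.26 to 3.83). The shared subunit *Itgb1* had 2332.69 and 5403.76.

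Of 15 other basement membrane components, 9 exceeded the median of all genes in ES cells and 14 in forebrain. By the 2-fold measure, 7 were at least 2-fold higher in forebrain, 2 in ES cells and 6 within 2-fold. *Nid2*, which links laminin to type IV collagen, had 2266.38 in ES cells and 514.03 in forebrain, 4.41-fold higher in ES cells (4.23 to 4.60), while its paralog *Nid1* had 793.28 and 879.11. Fibronectin (*Fn1*) had 3156.05 and 1518.37, 2.08-fold higher in ES cells (2.04 to 2.12). The proteoglycan *Agrn* had 1015.65 and 1315.72. At the other end, *Frem1*, a protein of the epithelial basement membrane, had 2.01 and 518.58 (258-fold, 172 to 407), and *Ntn4*, a laminin-related netrin, had 1.63 and 112.65 (69.1-fold, 29.4 to 213).

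Matrix proteases and their inhibitors were listed as 13 measured genes, of which 7 were at least 2-fold higher in forebrain and 4 in ES cells. The gelatinase *Mmp2* had 26.12 in ES cells and 661.63 in forebrain, and *Mmp16*, a membrane-bound protease, had 3.66 and 234.28. *Mmp14*, the membrane-bound activator of *Mmp2*, had 120.35 and 688.73. The inhibitor *Timp1* was higher in ES cells, with 907.40 and 129.14 (7.03-fold, 5.84 to 8.49). The collagenase *Mmp13* and the stromelysin *Mmp3* were low, with 13.01 and 19.58 in ES cells from 28 and 29 reads, and 0 and 1 read in forebrain.

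**Figure D5:**
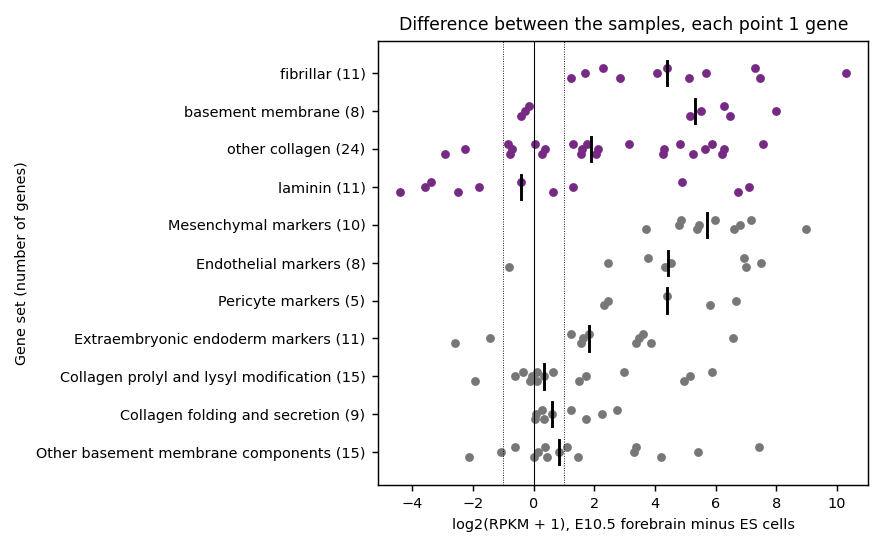
Difference in log2(RPKM + 1) of forebrain minus ES cells (horizontal axis) for the 4 classes of collagen and laminin genes (purple) and 7 other gene lists (grey), with each point a gene, short lines the medians and dotted lines a 2-fold difference. The fibrillar class lies wholly to the right of the dotted line at 1, as do the mesenchymal and pericyte markers, and laminins lie on both sides.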

How the data were processed

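The authors depleted total RNA of rRNAs, prepared strand-specific libraries, mapped single-end reads to NCBIM37 (mm9) and derived a value per gene with the RNA-seq pipeline of HTSstation. Bowtie 0.12.7 is named in the submitters' processing notes. Read length is given as 100 bp in the labels and 50 bp in the methods, and the sources used here do not state whether counting used strand, which annotation release was used or how samples were scaled. The RPKM values deposited by the authors were taken as they are.

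All 29311 listed genes had the coordinates of the annotation of the same build (gencode vM1), with starts in the files counted from 0. Union exonic lengths were computed from it. RPKM multiplied by exonic kb fell near multiples of 1.222 in ES cells and 0.8195 in forebrain, estimated on genes of up to 2500 bp. Within 0.05 of a multiple were 58.7% of 5704 low genes in ES cells and 61.0% of 6190 in forebrain, where chance gives 10%. Reads were inferred from this step and rounded. If the authors used another length for a gene, its inferred reads and interval change, but not its RPKM. Differences were taken on log2(RPKM + 1), which understates the change of low genes, and folds in the text are ratios of RPKM. With 1 sample per group no test between conditions was possible, and genes were called by size alone. Steps, intervals and calls were tested on simulated reads with Poisson noise. The simulation used the same exonic lengths throughout, so it does not cover genes that the authors counted on another length.

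The members, classes and gene lists were chosen with earlier results of these data known. Members with at least 20 inferred reads in either sample (51 of 54) were described, and the other 3 as partners or by reads. The values of 1 described member are not reported here, although it is included in the counts, sums and medians. From other lists, the 4 genes with the highest RPKM and the 4 with the largest difference could be named, and some further genes are given where a count or a partner calls for them. No member had a copy of at least 90% identity over 50% of its transcript among other protein-coding transcripts (blastn 2.17.0). Coding structure was read from the longest coding transcript. Of the lists, pluripotency, neural progenitor, erythroid and surface ectoderm markers served to describe the samples, and are no independent check. Protein sequences were not used here. Alternatives covered the pseudocount, scaling, low values and the fold for a call. Python 3.11.15, numpy 2.4.6, pandas 2.3.3, scipy 1.17.1 and matplotlib 3.10.9 were used.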

Additional observations from a re-analysis of the deposited data

How the results depend on the processing

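Of 32 alternative values, 27 left the count within 1.5 times or the median within the counting interval of its middle gene. These 27 include every value from 2 settings that could change nothing, and each of these settings gave more than 1 value. All 54 genes had at least 3 reads in forebrain, so requiring 3 reads in either sample removed none. No annotated member was unlisted, so adding unlisted members at 0 added none. The count of genes higher in forebrain ranged from 29 (4-fold) to 37 (1.5-fold), and that of genes higher in ES cells from 6 (4-fold) to 10 (1.5-fold). The median difference of collagens was 4.37 with a pseudocount of 0.1 and 2.57 with 5. The median of laminins was -0.14 with values as a share of the sample total, -0.50 relative to the upper quartile and -0.32 relative to all inferred reads. Scaling to the total moved the median of all genes from 0.01 to 0.26, and left the calls of all fibrillar and laminin genes in place. With a pseudocount of 5, *Col5a3*, *Col19a1* and *Col28a1* were within 2-fold. All 43 calls also held when the counting interval had to exclude no difference. No paired analysis was possible because each group has 1 sample. Depth limits members with few reads, as 16 of 54 had under 20 reads in ES cells.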

Other observations

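Listed genes that are not collagen or laminin genes overlap the loci of the latter, with 25 entries in 22 loci, and those named here were chosen after their values were seen. The lincRNAs *2810430I11Rik* and *Gm13372*, on the opposite strand of *Col5a1*, had 4 and 5 reads in ES cells and 82 and 50 reads in forebrain. *Gm15418*, inside *Col4a1* on the opposite strand, had 1 read and 41 reads. *Gm17329*, whose annotated 141 bp of exon overlap *Col1a1* over 109 bp on the opposite strand, had 1 read and 33 reads, in the same direction as *Col1a1*. Inside *Lamc1*, the pseudogene *Gm8818* on the opposite strand had an RPKM of 940.88 in ES cells and 604.50 in forebrain, without overlap of their exons. As the use of strand in counting is not given, reads of such pairs cannot be told apart where their exons overlap.

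Erythroid markers were higher in forebrain for 5 of 5 genes, compared with 25.8% of all listed genes. The embryonic globins *Hbb-y* and *Hbb-bh1* reached an RPKM of 367633.15 and 277515.80 there, compared with 167.15 and 100.41 in ES cells.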
